A study of Bos taurus with 36 samples.

Results

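The genes described here were 6 genes of T cells and of antibody secretion: CD3G, CD3D, CD3E, CD8A, JCHAIN and PIGR. They were taken as every probe set whose single gene symbol in the array's annotation was one of these names, which gave 7 of 24016 probe sets and 6 of 9155 genes with a single symbol. CD3D had 2 probe sets, Bt.6850.1.S1_a_at and Bt.6850.2.S1_at, called 6850.1 and 6850.2 below, and each of the other genes had 1. The study used 6 multiparous Holstein cows whose right side of the udder was milked 4 times daily (4×) and whose left side was milked 2 times daily (2×) until day 21 of lactation, after which both sides were milked 2×. A biopsy of each side was taken on days 21, 23 and 40, giving 6 groups of 6 biopsies and 36 arrays: 4× and 2× glands on day 21 (rear glands), on day 23 (fore glands) and on day 40 (rear glands). On days 23 and 40 a "4×" gland was one milked 4× until day 21. The 4× side was the right side in every cow, so that milking frequency and side of the udder cannot be told apart, and gland position and day cannot be told apart on day 23. The rear glands sampled on day 40 had already been biopsied on day 21, so that day and earlier biopsy cannot be told apart on day 40.

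CD3G, CD3D and CD3E are the gamma, delta and epsilon chains of CD3, the signalling part of the T cell receptor complex, and CD8A is a chain of the co-receptor that marks cytotoxic T cells. JCHAIN is made by plasma cells and links IgA or IgM molecules into polymers, and PIGR is the receptor by which epithelial cells take up these polymers on their tissue side and release them into secretions. In the mammary gland, plasma cells in the tissue and PIGR in the secretory epithelium are the known route of polymeric antibody into milk. In biopsies of whole tissue, fewer cells of a type and less RNA per cell cannot be told apart. The tissue held secretory epithelium by its markers: the mean log2 signal of 19 milk secretory genes lay between 11.99 and 12.13 in the 4× glands and between 11.99 and 12.17 in the 2× glands on day 21.

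JCHAIN was the member with the largest difference between sides of the udder. Its log2 level was lower in the 4× than in the 2× gland of 5 of 6 cows on day 21, with a mean difference of -0.34 (SE 0.10), and of 5 of 6 cows on day 40, with a mean difference of -0.24 (SE 0.10). On day 23, after 4× milking had ended, its mean difference was 0.017 (SE 0.10). CD3G had a difference of the same direction on day 21, -0.19 (SE 0.087), and PIGR one of the opposite direction, 0.22 (SE 0.10). No member passed an adjusted p of 0.05 in limma in any comparison. Over all probe sets, 0% passed that threshold between the sides on any day or for any change in the difference. At an unadjusted p of 0.05, 3 of 7 member probe sets passed on day 21, against 15.9% of all probe sets: PIGR was higher in the 4× glands, as were 8.02% of all, and JCHAIN and CD3G were lower, as were 7.91% of all. On day 23, 0 of 7 passed, against 2.64%, and on day 40 1 of 7 passed, JCHAIN, against 20.4% (8.86% lower). The median difference over the 7 was -0.12 on day 21, 0.053 on day 23 and -0.019 on day 40. Over all genes with a single symbol, the medians were 0.0075, 0.0038 and -0.0044.

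**Figure D1:**
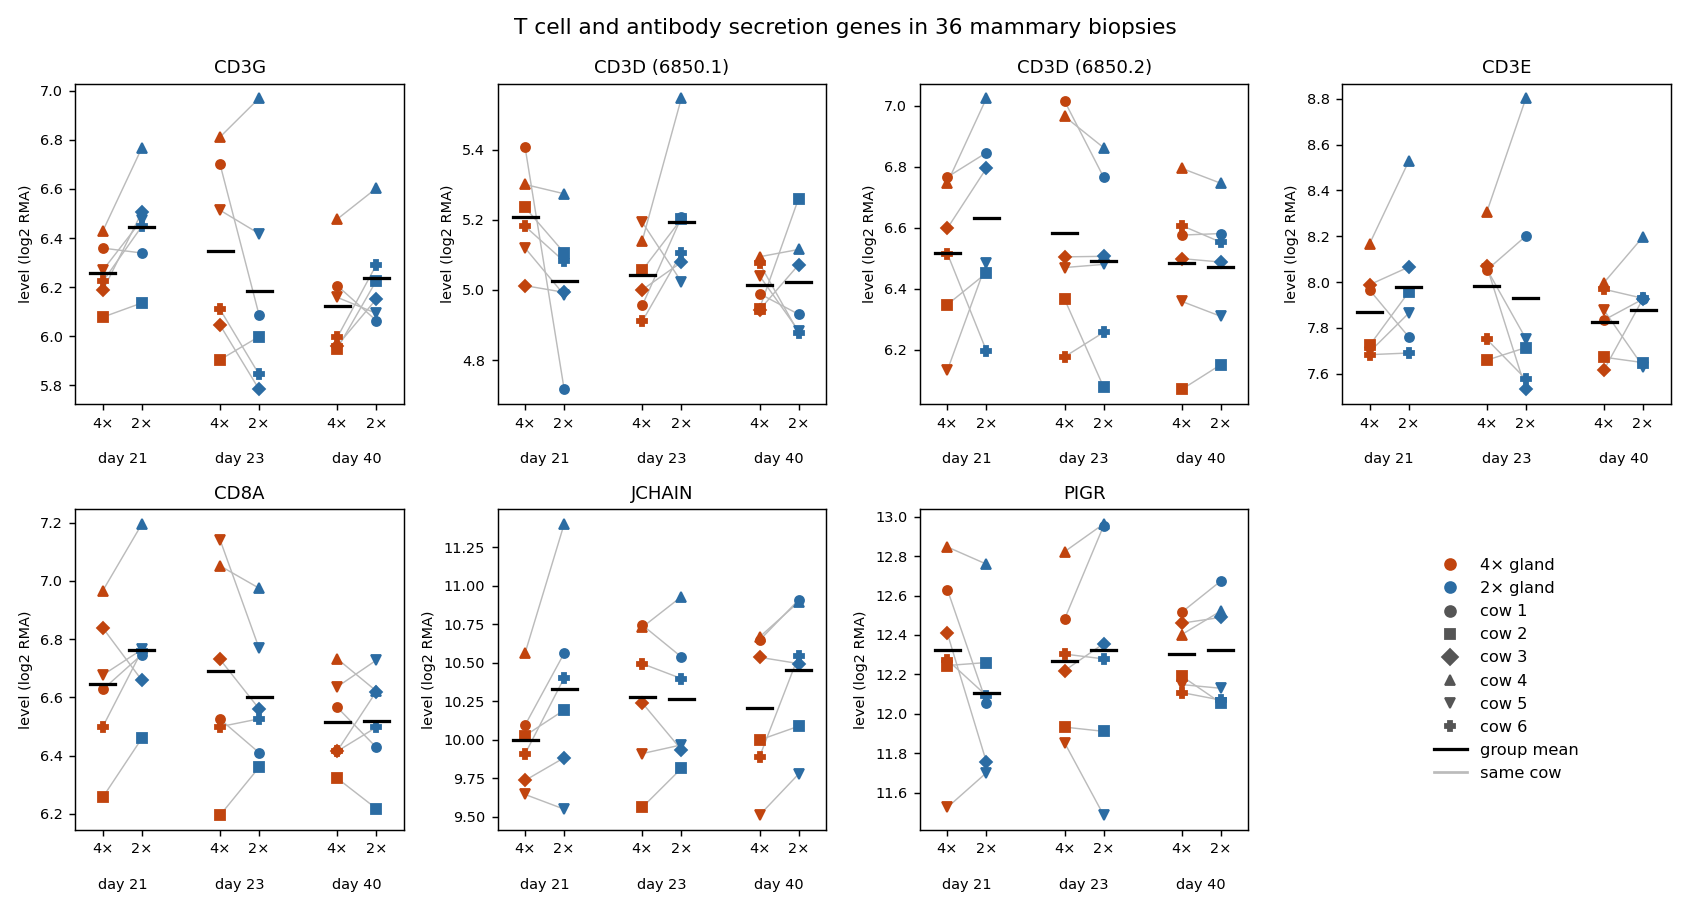
Log2 level (RMA) of the 7 probe sets in each biopsy, with 4× glands left of 2× glands on days 21, 23 and 40. Points are cows, grey lines join the glands of 1 cow and black bars are group means of 6 cows; the ranges of 4× and 2× glands overlap in every panel on every day.

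The CD3 chains were examined first. CD3G ranged from 6.08 to 6.43, with a median of 6.25, in the 4× glands on day 21, and from 6.14 to 6.77, with a median of 6.46, in the 2× glands. The ranges overlapped, with the 4× gland lower in 5 of 6 cows and the difference in cow 1 at 0.020. The mean difference was -0.19 on the log2 scale (SE 0.087, 95% interval -0.37 to -0.0064), with an unadjusted p of 0.043 and an adjusted p of 0.30 in limma. Without cow 3, 4, 5 or 6 the unadjusted p was above 0.05, at most 0.13. On day 23 CD3G ranged from 5.91 to 6.81, with a median of 6.31, in the 4× glands and from 5.78 to 6.97, with a median of 6.04, in the 2× glands. The 4× gland was higher in 4 of 6 cows by then, and the mean difference was 0.16 (SE 0.087, adjusted p of 1 in limma). On day 40 the ranges were 5.95 to 6.48 in the 4× glands and 6.06 to 6.60 in the 2× glands, with a mean difference of -0.11 (SE 0.087, adjusted p of 0.44 in limma).

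The change in the CD3G difference between days 21 and 23 was larger than either difference alone. It was 0.35 (SE 0.12), positive in 5 of 6 cows, with an unadjusted p of 0.0095 and an adjusted p of 0.39 in limma. Within the 2× glands CD3G was lower on day 23 than on day 21 in 5 of 6 cows (-0.26, SE 0.10, unadjusted p of 0.018). Without cow 3 or cow 6 that p was above 0.05, at most 0.15. Within the 4× glands the difference was 0.090 (SE 0.10) with 3 cows in each direction. From day 23 to day 40 the difference between sides moved by -0.28 (SE 0.12, adjusted p of 0.42 in limma), negative in 5 of 6 cows. Of the 7 probe sets, 3 passed an unadjusted p of 0.05 for the change from day 21 to day 23, against 10.8% of all probe sets: CD3G, JCHAIN and CD3D with 6850.1. For the change from day 23 to day 40 it was CD3G alone, against 11.9%. From day 21 to day 40 the change passed in 0 of 7, against 6.01%.

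CD3E, the epsilon chain, ranged from 7.68 to 8.17, with a median of 7.84, in the 4× glands on day 21 and from 7.69 to 8.53, with a median of 7.91, in the 2× glands. It was lower in the 4× gland of 5 of 6 cows, but the differences ran from -0.36 in cow 4 to 0.21 in cow 1, and their mean of -0.11 (SE 0.10, adjusted p of 0.65 in limma) was within their spread. On day 23 its differences spread from -0.50 in cow 4 to 0.54 in cow 3, with a mean of 0.053 (SE 0.10), and on day 40 from -0.31 to 0.25, with a mean of -0.049 (SE 0.10). The 95% intervals of the CD3E difference were -0.32 to 0.11 on day 21, -0.16 to 0.27 on day 23 and -0.26 to 0.17 on day 40.

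The 2 probe sets of CD3D, the delta chain, did not give the same direction. With probe set 6850.2 CD3D ranged from 6.13 to 6.77, with a median of 6.56, in the 4× glands on day 21 and from 6.20 to 7.02, with a median of 6.64, in the 2× glands. It was lower in the 4× gland of 5 of 6 cows, with a mean of -0.12 (SE 0.075, adjusted p of 0.46 in limma), and cow 6 differed from the rest at 0.32. With probe set 6850.1 the ranges were 5.01 to 5.41 in the 4× glands and 4.72 to 5.27 in the 2× glands, and the 4× gland was higher in 6 of 6 cows by a mean of 0.18 (SE 0.088, adjusted p of 0.32 in limma). The exact sign-flip permutation test over the 6 cows, two-sided, gave 0.031 for that difference, which is the smallest p that 6 cows allow. It was 0.69 in cow 1, from 0.019 to 0.13 in the other cows, and 0.082 on average when cow 1 was left out. From day 21 to day 23 this difference moved by -0.33 (SE 0.12, negative in 5 of 6 cows, adjusted p of 0.40 in limma), with an unadjusted p of 0.014, or 0.085 without cow 1. The mean of 6850.1 over all arrays was 5.08, close to the log2 value of 5 below which 7491 probe sets had their mean. Over the 36 arrays the probe sets of CD3D had a Pearson r of 0.16, and over the 18 differences between sides an r of -0.25. The sources used here do not show which transcripts each one detects.

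CD8A, the cytotoxic co-receptor chain, ranged from 6.26 to 6.97, with a median of 6.65, in the 4× glands on day 21 and from 6.46 to 7.20, with a median of 6.75, in the 2× glands. It was lower in the 4× gland of 5 of 6 cows, by a mean of -0.12 (SE 0.074, adjusted p of 0.44 in limma), with cow 3 at 0.18. The mean difference was 0.091 (SE 0.074) on day 23 and -0.0043 (SE 0.074, 95% interval -0.16 to 0.15) on day 40. CD8A had its smallest p between days rather than between sides. Within the 2× glands it ranged from 6.22 to 6.73, with a median of 6.56, on day 40, against 6.46 to 7.20, with a median of 6.75, on day 21. The ranges overlapped, and CD8A was lower on day 40 in 6 of 6 cows, by a mean of -0.25 (SE 0.078, unadjusted p of 0.0035, adjusted p of 0.46 in limma). Leaving out each cow in turn gave means from -0.29 to -0.18 and unadjusted p-values up to 0.045. Within the 4× glands the difference from day 21 to day 40 was -0.13 (SE 0.078), lower in 5 of 6 cows, and the change in the difference between sides from day 21 to day 40, at 0.12, had an SE of 0.10 and an adjusted p of 0.84 in limma. In the 2× glands from day 21 to day 40, CD8A was the 1 of 7 member probe sets past an unadjusted p of 0.05, against 6.79% of all probe sets, of which 0.00416% passed the adjusted test. In the 4× glands it was 1 of 7, against 8.68% (0.0583% by the adjusted test), namely CD3D with 6850.1 (-0.19, SE 0.078, lower in 6 of 6 cows). Between days 23 and 21, 2 of 7 passed in the 4× glands, against 3.8%: JCHAIN and CD3D with 6850.1 (-0.17, SE 0.078). In the 2× glands 3 of 7 passed, against 16.1%: CD3G, CD8A (-0.16, SE 0.078, lower in 5 of 6 cows) and CD3D with 6850.1 (0.17, SE 0.078, higher in 6 of 6 cows).

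**Figure D2:**
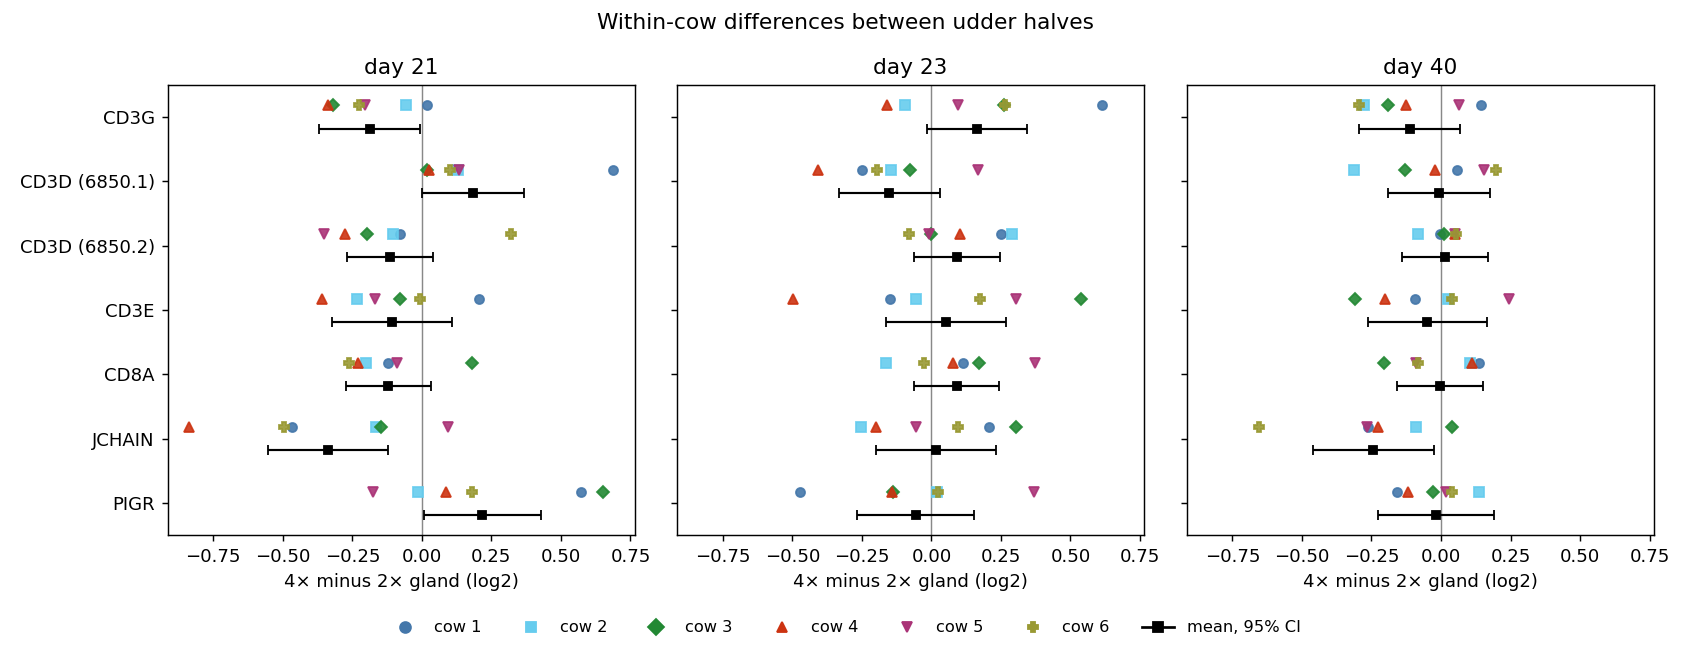
Differences between the 4× and the 2× gland of each cow (log2, coloured points) for the 7 probe sets on days 21, 23 and 40, with the mean and its 95% interval from limma below them (black). On day 21 the JCHAIN points lie below 0 in 5 of 6 cows and on day 23 on both sides of 0.

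JCHAIN, the chain that joins polymeric antibodies, ranged from 9.64 to 10.56, with a median of 9.97, in the 4× glands on day 21 and from 9.55 to 11.40, with a median of 10.30, in the 2× glands. The ranges overlapped, and the 2× glands spread more widely. Within cows the difference was -0.84 in cow 4, -0.49 in cow 6, -0.47 in cow 1, -0.17 in cow 2, -0.15 in cow 3 and 0.095 in cow 5. Its mean, a 0.79-fold level in the 4× glands (95% interval of the log2 difference -0.55 to -0.12), had an unadjusted p of 0.0040 and an adjusted p of 0.18 in limma, and the exact sign-flip permutation test gave 0.063. Leaving out each cow in turn gave means from -0.42 to -0.24, each with an unadjusted p under 0.05, and the mean without cow 4 was the one nearest to 0.

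On day 23 JCHAIN ranged from 9.56 to 10.74, with a median of 10.37, in the 4× glands and from 9.81 to 10.93, with a median of 10.18, in the 2× glands. Differences ran from -0.25 to 0.30, with 3 cows in each direction, around a mean of 0.017 (95% interval -0.20 to 0.23). The change in the difference from day 21 to day 23 was 0.35 (SE 0.15, unadjusted p of 0.026, adjusted p of 0.42 in limma), positive in 4 of 6 cows. Without cow 1, 3, 4 or 6 the unadjusted p was above 0.05, at most 0.097 without cow 1, where the change was 0.29. This change went with a higher JCHAIN level within the 4× glands on day 23 than on day 21 (0.28, SE 0.14, higher in 5 of 6 cows), whereas within the 2× glands the mean was -0.068 (SE 0.14). The adjusted p of the 4× glands was 1.00 in limma, and without cow 1, 3, 5 or 6 the unadjusted p was above 0.05, at most 0.18.

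On day 40 JCHAIN ranged from 9.51 to 10.67, with a median of 10.27, in the 4× glands and from 9.78 to 10.91, with a median of 10.52, in the 2× glands. It was again lower in the 4× gland of 5 of 6 cows, at 0.85-fold, with an unadjusted p of 0.029 and an adjusted p of 0.21 in limma. The difference was -0.66 in cow 6 and between -0.27 and 0.041 in the others, and without cow 6 it was -0.16 with an unadjusted p of 0.17. Without cow 1 the unadjusted p was also above 0.05. The cow in which JCHAIN was higher in the 4× gland was cow 5 on day 21 and cow 3 on day 40.

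PIGR, the epithelial antibody receptor, ranged from 11.52 to 12.85, with a median of 12.34, in the 4× glands on day 21 and from 11.70 to 12.76, with a median of 12.07, in the 2× glands. It was higher in the 4× gland of 4 of 6 cows. The differences were 0.65 in cow 3 and 0.57 in cow 1 and ran from -0.18 to 0.18 in the other cows, so that the mean of 0.22 (1.16-fold, SE 0.10, unadjusted p of 0.043, adjusted p of 0.30 in limma) rested on cows 1 and 3: without cow 3 it was 0.13, with an unadjusted p of 0.25. Without cow 1, 4 or 6 the unadjusted p was also above 0.05, and the exact sign-flip permutation test gave 0.22. On day 23 the mean was -0.057 (95% interval -0.27 to 0.15) and on day 40 it was -0.019 (95% interval -0.23 to 0.19), each with 3 cows in each direction. On day 40 the PIGR levels of the 4× glands ranged from 12.11 to 12.52 and those of the 2× glands from 12.06 to 12.67, with an SD of 0.18 and 0.27 (n = 6 each), against 0.45 and 0.39 on day 21 and 0.36 and 0.58 on day 23.

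JCHAIN and PIGR were compared within the same biopsies. Across the 36 arrays the levels of both genes had a Pearson r of 0.71, where the 6 arrays of a cow share that cow. Across the 18 differences between sides the r was -0.36, where the 3 differences of a cow share that cow. On day 21 JCHAIN was lower and PIGR higher in the 4× gland of 4 of 6 cows, both were lower in 1 cow, and JCHAIN was higher and PIGR lower in 1 cow. On day 23 JCHAIN was lower and PIGR higher in 2 cows, and JCHAIN higher and PIGR lower in 2. Both were lower in 1 cow and both higher in 1 on that day. On day 40 JCHAIN was lower with PIGR higher in 3 cows, JCHAIN higher with PIGR lower in 1, and both were lower in 2. Levels of both genes thus ran together across cows. Their differences between the sides of an udder had opposite signs more often than the same sign on days 21, 23 and 40.

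**Figure D3:**
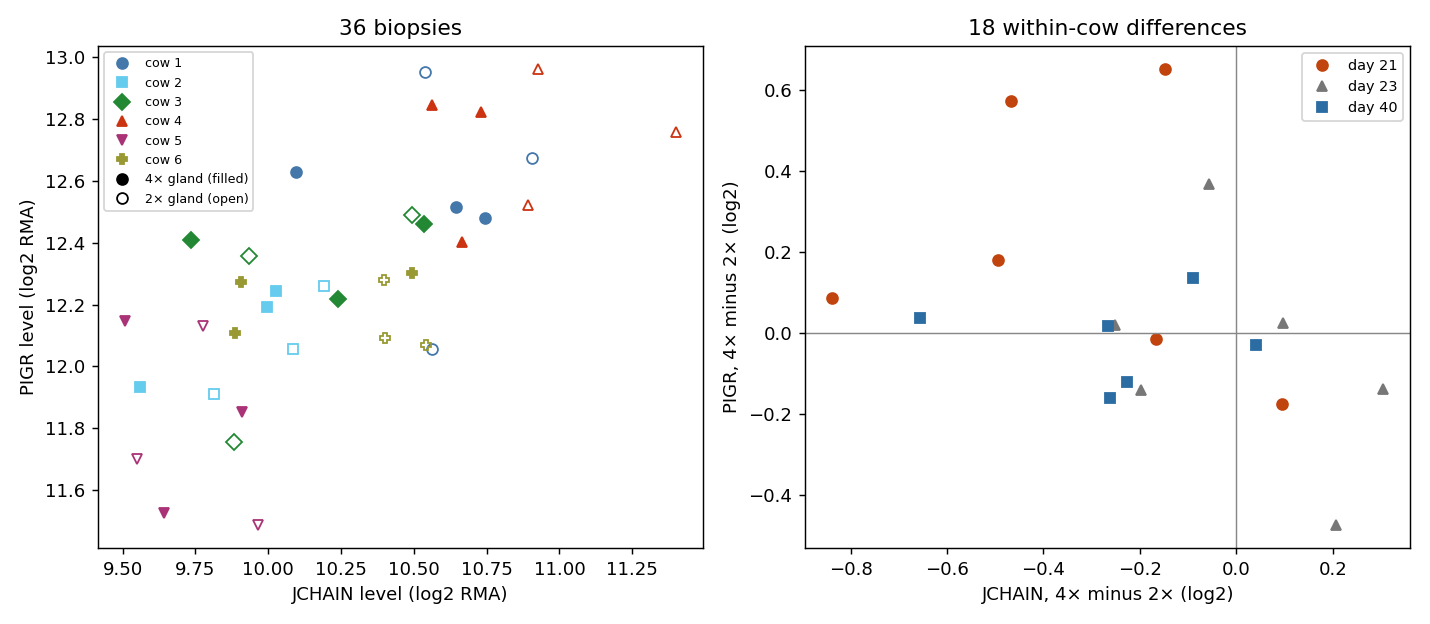
Left, log2 level of PIGR against that of JCHAIN in 36 biopsies, with filled 4× and open 2× glands and a symbol for each cow. Right, the 4× minus 2× difference of PIGR against that of JCHAIN in each cow on days 21, 23 and 40; the Pearson r was 0.71 on the left and -0.36 on the right.

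Most of the variation of these genes lay between cows. Cow means accounted for 69.8% of the sum of squares of JCHAIN over the 36 arrays, 66.1% of PIGR, 67.0% of CD8A, 71.2% of CD3D with 6850.2, 57.0% of CD3E and 55.4% of CD3G, against a median of 27.4% over all probe sets. The 6 groups accounted for 4.53% to 14.3% of these probe sets, against a median of 14.2% over all probe sets. CD3D with 6850.1 was the exception, with 26.8% between cows and 28.0% between groups. Cow 4 had the highest mean of all 7 probe sets, and in CD3G and CD3E it was the highest of the 6 cows in each of the 6 groups. Cow 2 had the lowest mean of CD3G, CD3D with 6850.2, CD3E and CD8A, and cow 5 the lowest of JCHAIN and PIGR. Mean JCHAIN was 10.86 in cow 4 and 9.73 in cow 5, and mean PIGR was 12.72 in cow 4 and 11.81 in cow 5.

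The order of the 6 group means was read against this spread. For JCHAIN the lowest mean was that of the 4× glands on day 21 and the highest that of the 2× glands on day 40, 10.45 ± 0.45, a span of 0.46 on the log2 scale. For PIGR the highest means were level at 12.32, with an SD of 0.45 in the 4× glands on day 21, 0.58 in the 2× glands on day 23 and 0.27 in the 2× glands on day 40, and the lowest was that of the 2× glands on day 21, 12.10 ± 0.39 (SD, n = 6 each). CD3G, CD8A and CD3D with 6850.2 were highest in the 2× glands on day 21, CD3E in the 4× glands on day 23 and CD3D with 6850.1 in the 4× glands on day 21. The lowest mean was that of the 4× glands on day 40 for CD3G, CD3E, CD8A and CD3D with 6850.1. Neighbouring groups in these orders differed by at most 0.21, and 0 of the neighbouring pairs of any probe set differed by more than the larger of the SDs of the pair. These SDs hold the spread between cows and leave out the pairing of glands, so this count cannot show whether groups differ.

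**Figure D4:**
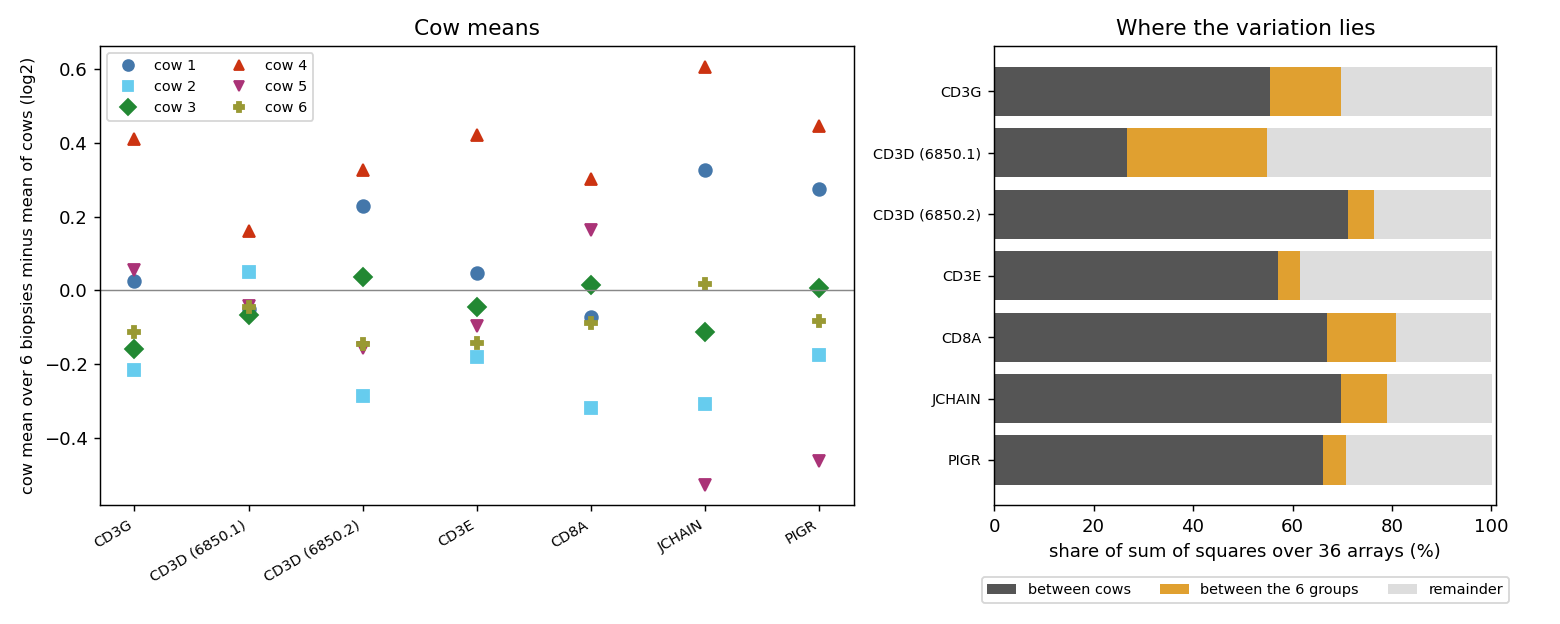
Left, mean log2 level of each cow over its 6 biopsies minus the mean of the 6 cows, for each probe set. Right, share of the sum of squares over 36 arrays between cows, between the 6 groups of milking and day, and remaining; cow 4 is highest for every probe set.

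The probe sets most like each member over the 36 arrays were found by Pearson r among single-symbol probe sets of other genes. CD3E was closest to TCRA, the alpha chain of the T cell receptor (r of 0.83), TCF7, a transcription factor of T cells (0.81), and LOC509513, whose RefSeq synonym is TCRB (0.79). CD3D with 6850.2 was closest to TCRA (0.81), CD247, the zeta chain of the receptor complex (0.79), and LOC509513 (0.74). CD3G was closest to CXCR6, a chemokine receptor of lymphocytes (0.89), UBD, a ubiquitin-like protein of immune cells (0.87), and LOC510988, with the RefSeq synonym GIMAP7 (0.84). CD8A was closest to BCL2A1, a survival factor of leukocytes (0.74), LOC510988 (0.72) and BANP (0.71). BANP was dim in most 4× glands on day 21, with a median of 3.73 and a range from 3.34 to 9.66. Its r with CD8A over the 18 differences between sides was 0.255. JCHAIN was closest to LOC524810, an immunoglobulin heavy chain by its RefSeq synonyms (0.81), IGCGAMMA, named for the gamma heavy chain (0.79), and SLAMF7, a receptor of plasma cells and cytotoxic cells (0.74). PIGR was closest to the kinase MAP4K2 (0.79), the phosphatase CTDSP1 (0.76) and IGCGAMMA (0.75). Over the 18 differences between sides r was 0.78 for CD3G with CXCR6, 0.66 for CD3E with TCRA and 0.80 for JCHAIN with LOC524810, but 0.030 for PIGR with IGCGAMMA and 0.25 for CD3D with TCRA. Among the members themselves, CD3E had an r over levels of 0.75 with CD3G, 0.73 with CD3D (6850.2) and 0.60 with CD8A. Levels hold the differences between cows, because arrays of the same cow share that cow. For the same pairs, r over the 18 differences between sides was lower, at 0.41, 0.071 and 0.34. CD3D (6850.2) with CD8A had 0.50 over levels and -0.042 over these differences. In the RefSeq annotation CD3E, CD3D and CD3G stand next to each other, with no other gene between them.

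The differences of 3 immunoglobulin genes, SLAMF7 and PRDM1 were set beside those of JCHAIN, and none passed the adjusted test. LOC524810, IGCGAMMA and SLAMF7 were chosen for their likeness to JCHAIN, and IGHM and PRDM1 for their small p among 17 measured B cell and plasma cell genes. That likeness was found over the same arrays that hold the differences between sides, so a matching pattern in those genes is not independent of JCHAIN. LOC524810 had a difference of -0.38 (SE 0.13, lower in 5 of 6 cows) on day 21, 0.18 (SE 0.13, 3 cows in each direction) on day 23 and -0.38 (SE 0.13, lower in 6 of 6 cows) on day 40. IGHM, the heavy chain of IgM, had -0.34 (SE 0.15, lower in 5 of 6 cows), 0.024 (SE 0.15) and -0.46 (SE 0.15, lower in 6 of 6 cows, adjusted p of 0.18 in limma) on the same days. On day 40 IGHM ranged from 11.49 to 12.20 in the 4× glands and from 11.60 to 12.96 in the 2× glands, so that these groups overlapped as those of JCHAIN did. IGCGAMMA had -0.19 (SE 0.15, lower in 4 of 6 cows), 0.16 (SE 0.15) and -0.20 (SE 0.15, lower in 4 of 6 cows). SLAMF7 had -0.24 (SE 0.10, lower in 6 of 6 cows), 0.029 (SE 0.10) and -0.11 (SE 0.10, lower in 4 of 6 cows). PRDM1, the transcription factor that drives plasma cell formation, had -0.16, 0.16 and -0.16 (SE 0.077 each). Other genes among the 17 went the opposite way. ELL2 had the smallest p of the list on day 21 and was higher in the 4× glands (0.51, SE 0.19, higher in 4 of 6 cows). Its mean over all arrays was 9.76, against 6.02 for MZB1 and 12.04 for IGHM. Biopsies of whole tissue do not show which cells gave the ELL2 signal. SPIB was higher on day 40 (0.22, SE 0.105, higher in 5 of 6 cows). Of the 17 differences on day 40, 14 were above 0 and 3 below. BLK, BLNK, IGLL1 and POU2AF1 among the 17 were dim, with means over all arrays below a log2 value of 5.

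Of 26 measured genes of the T cell receptor, its co-receptors and its signalling other than the members, 3 were higher and 4 lower in the 4× glands on day 21 at an unadjusted p of 0.05, and 0 passed the adjusted test. Over the 9155 genes with a single symbol, 8.29% were higher and 9.61% lower at that threshold, with a median difference of 0.0075 against -0.023 for the T cell genes. ZAP70, the kinase that binds the phosphorylated CD3 chains, had 0.58 (SE 0.16, higher in 5 of 6 cows), CD8B, the partner chain of CD8A, had 0.20 (SE 0.080, higher in 6 of 6 cows), and CD48, a surface ligand of lymphocytes, had -0.46 (SE 0.14, lower in 5 of 6 cows). CD8B and CD8A thus had differences of opposite sign on day 21. The 26 held CD247 but not TCRA or LOC509513, which were found by likeness to CD3E and CD3D over these same arrays. On day 21 TCRA had -0.19 (SE 0.098, lower in 5 of 6 cows) and LOC509513 -0.23 (SE 0.091, lower in 5 of 6 cows). CD247 had -0.15 (SE 0.091, lower in 4 of 6 cows), and TCF7, by the probe set like CD3E, had 0.0016 (SE 0.115). None of these passed the adjusted test. On day 23, 1 of the 26 was higher and 0 lower, against 1.41% and 1.07% of all genes, and on day 40, 3 were higher and 3 lower, against 8.90% and 9.51%. Of 20 genes of cytotoxic lymphocytes, 1 was higher and 3 lower on day 21: GZMB, a granzyme, had 0.22 (SE 0.073), and PRF1, perforin, had -0.22 (SE 0.090), lower in 6 of 6 cows. SLAMF7, also among the lower genes, had -0.24 (SE 0.10), lower in 6 of 6 cows. GZMB was dim, with a mean of 4.63 over all arrays, below a log2 value of 5.

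Of 17 measured genes of B cells and plasma cells, 1 was higher and 2 lower on day 21, 1 was higher and 0 lower on day 23, and 1 was higher and 2 lower on day 40. Their median difference was -0.0043, 0.023 and 0.079, and on day 40 14 of the 17 differences were above 0 and 3 below. These counts include BLK, BLNK, IGLL1 and POU2AF1, named above as dim. Of 27 genes of antibody transport, lymphocyte homing and IgA induction, 4 were higher and 1 lower on day 21, 2 were higher on day 23 and 3 were higher on day 40. Those named by their p were TGFBR2, a TGF-beta receptor (0.27, SE 0.090), YES1, a kinase that takes part in PIGR transport in mouse liver (0.32, SE 0.12), and VPS35, a subunit of retromer (0.38, SE 0.15), on day 21. On day 23 CCL28, the epithelial chemokine that draws IgA plasma cells to the mammary gland in mouse, was higher in 6 of 6 cows, at 0.23 (SE 0.093, adjusted p of 1 in limma). On day 40 TNFSF13, also called APRIL, had 0.30 (SE 0.11) and MADCAM1, a vascular homing ligand, 0.20 (SE 0.082, higher in 6 of 6 cows). None of these genes passed the adjusted test.

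Marker lists of other cells were read in the same biopsies, and 0 of their genes passed the adjusted test between the sides on day 21 or 40. Over the 9155 genes with a single symbol, 8.29% were higher and 9.61% lower on day 21 at an unadjusted p of 0.05. The shares on day 40 were 8.9% and 9.51%. Of 10 myoepithelial genes, 0 were higher and 1 lower at an unadjusted p of 0.05 in the 4× glands on day 21, with a median difference of -0.19, and their mean log2 signal lay between 8.78 and 9.55 in the 4× glands and between 9.12 and 9.76 in the 2× glands. Of 16 macrophage and dendritic cell genes, 1 was higher and 5 lower, with a median of -0.15, and their mean signal lay between 6.61 and 6.74 in the 4× glands and between 6.66 and 7.02 in the 2× glands. Of 14 endothelial genes, 7 were higher and 0 lower, with a median of 0.17, and their mean signal lay between 7.21 and 7.74 in the 4× glands and between 7.27 and 7.56 in the 2× glands. Of 14 neutrophil genes, 0 were higher and 2 lower, with a median of -0.092, of 19 milk secretory genes 5 were higher and 3 lower, with a median of 0.075, and of 15 fibroblast and adipocyte genes 2 were higher and 1 lower, with a median of 0.0019. On day 40, when JCHAIN was again lower in 5 of 6 cows, 0 of the endothelial genes were higher and 2 lower, with a median of -0.12, and the medians were -0.11 for the myoepithelial, -0.046 for the macrophage and dendritic cell and 0.057 for the neutrophil genes. The part of these markers in the differences of JCHAIN, CD3G and PIGR was not tested.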

How the data were processed

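Each of the 36 biopsies was hybridised to a GeneChip Bovine Genome Array. The authors deposited log2 values from the Robust Multichip Average (background correction, normalization across arrays and summary of probes), whose version is not given in the sources used here. Such summaries compress differences of dim probe sets. Of 24128 probe sets, 24016 were tested and 112 were controls, not used. Array medians lay between 6.04 and 6.15. The number of arrays limits the precision.

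The milking frequency and day came from the array titles, and the cow from the sample descriptions, whose cow number equals the replicate number of the title on every array. Glands of the same cow were paired: after removal of the group means the paired arrays had correlations from 0.24 to 0.67 in 18 of 18 pairs, and 16 were most alike to a pair mate. Differences of 4× minus 2× glands were fitted with limma 3.58.1 in R 4.3.3 (lmFit, eBayes) on 18 within-cow differences with a mean for each day. Differences between days within 4× or 2× glands were fitted on 36 arrays with cow as a block. Benjamini-Hochberg adjustment ran over the 24016 tested probe sets, and a call was an adjusted p under 0.05. P-values cover these 6 cows only. Those from limma rest on a residual spread pooled over all days and moderated across probe sets, not on the cows of the comparison alone. The fit of differences between sides had no term for cow, so differences of the same cow on different days counted as independent. For JCHAIN the SE was 0.104 on each day, where the SD of the cow differences was 0.33 on day 21, 0.223 on day 23 and 0.235 on day 40. Exact sign-flip permutation tests used 64 flips and were two-sided, with a smallest p of 0.031. In the array's annotation 13318 probe sets had 1 gene symbol, 86 had several and 10724 had none. A gene of a list with several probe sets was represented by the one with the highest mean.

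Members and lists were chosen with earlier results of these data known. All member probe sets were named, with up to 3 genes of the smallest p for each list and comparison, and the 3 probe sets most like each member. CD3D was represented there by probe set 6850.2. The fits were tested on simulated data. Shares of variation, the order of groups and the values of IGHM, PRDM1 and LOC524810 on all days were added after the data were seen. So were the differences between sides of SLAMF7, TCRA, LOC509513, CD247 and TCF7. Member sequences and milk yields were not analysed here. Plots were made with matplotlib 3.10.9.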

Additional observations from a re-analysis of the deposited data

Results flagged for a closer look

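Of 112 sets of 6 values of the members (levels in each group and differences between sides or days), 5 held a value that stood apart from the other 5, by Dixon's test at the 95% level. Chance gives about 1 in 20 such sets. Of these, 4 belonged to CD3D and 1 to CD8A.

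For CD3D with probe set 6850.1, the level of cow 4 in the 2× glands on day 23 was 5.55, with the next at 5.21, and the 4× minus 2× difference of cow 1 on day 21 was 0.69, with the next at 0.13. For CD3D with probe set 6850.2, the change in the difference from day 21 to day 23 was -0.40 in cow 6, with the next at 0.20, and the difference of the 2× glands between days 40 and 21 was 0.36 in cow 6, with the next at -0.17. Without cow 6, that change of 6850.2 from day 21 to day 23 had a mean of 0.33 and an unadjusted p of 0.0034, in place of 0.21 and 0.064 with all 6 cows. For CD8A, the difference of the 4× glands between days 23 and 21 was 0.46 in cow 5, with the next at 0.085, and without cow 5 its mean was -0.038 in place of 0.046.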

How the results depend on the processing

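No alternative brought a member past an adjusted p of 0.05; the smallest adjusted p over 1131 alternative values of 70 member results was 0.11. Of these values, 989 kept their direction and their side of an unadjusted p of 0.05, 80 lost it, 27 reached it and 35 changed sign, 0 of them among results past that threshold. On day 21 the count of member probe sets past it was 3, but 1 with no replicate block, scaled to the reference genes or by the exact sign-flip permutation. On day 40 it was 1, but 0 with no replicate block or by sign flips. For the change from day 21 to day 23 it was 3, but 1 with no replicate block, 5 without moderation and 0 by sign flips. Leaving out each cow in turn gave counts from 2 to 3 on day 21, from 0 to 1 on day 23 (1 without cow 2, 4 or 5) and on day 40 (0 without cow 6), and from 1 (without cow 1) to 4 for that change. JCHAIN on day 21 kept an unadjusted p under 0.05 in all but 2 alternatives, no replicate block (p of 0.20) and the exact sign-flip permutation.

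Small differences changed sign. With array weights CD3D (6850.1) on day 40 was 0.0032 and PIGR in the 4× glands from day 21 to day 40 was 0.065. With scaling to reference genes CD3D (6850.2) on day 40 was -0.0060, PIGR in the 4× glands to day 40 was 0.00037, CD3E in the 2× glands to day 23 was 0.012 and CD3D (6850.1) in the 2× glands to day 40 was 0.072. With centring on the array median CD3D (6850.2) on day 40 was -0.020 and CD3D (6850.1) in the 2× glands to day 40 was 0.0069. Leaving out each cow gave, for CD3E, -0.045 to 0.16 on day 23, -0.11 to 0.0034 on day 40, -0.014 to 0.13 for the change from day 21 to day 40, -0.18 to 0.048 from day 23 to day 40, -0.11 to 0.023 in the 4× glands to day 40 and -0.15 to 0.050 in the 2× glands to day 23. For JCHAIN it gave -0.041 to 0.071 on day 23, -0.011 to 0.18 from day 21 to day 40 and -0.17 to 0.012 in the 2× glands to day 23. For PIGR it gave -0.14 to 0.027 on day 23, -0.050 to 0.0088 on day 40, -0.018 to 0.12 from day 23 to day 40 and -0.15 to 0.068 in the 4× glands to day 40. For CD8A it gave -0.033 to 0.036 on day 40 and -0.038 to 0.077 in the 4× glands to day 23. For CD3D it gave -0.050 to 0.053 (6850.1, day 40), -0.046 to 0.037 (6850.1, 2× glands to day 40) and -0.086 to 0.015 (6850.2, 4× glands to day 40). The cause was not tested.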
